A study of Mus musculus with 8 samples.

Results

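The natriuretic peptide system of the heart was examined through 8 genes: the peptide genes Nppa, Nppb and Nppc, the receptor genes Npr1, Npr2 and Npr3, and the processing genes Corin and Pam. They were chosen by name for their place in this system, from the 19933 genes that an Affymetrix Mouse Gene 1.0 ST array, read through probes spread along each transcript, could name singly. Each of the 8 had 1 transcript cluster (the array's gene-level probe set), and all 8 passed a filter on dim genes that left 14950 genes. The groups were KO hearts, deficient in HDAC3 and written MCH3-KO in the design text, and WT hearts, with 4 arrays each. Every heart came from a male C57BL/6 mouse aged 6 weeks that was fed normal chow, and hearts were frozen in liquid nitrogen. Titles call the arrays numbered biological replicates. Neither the heart cells in which the gene was removed, the promoter that drove the removal, nor how much of the atria each heart carried is given in the sources used here. HDAC3 removes acetyl groups from histones as part of the NCoR and SMRT corepressor complexes.

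As background, ANP (from Nppa) and BNP (from Nppb) are hormones of heart muscle cells that lower blood volume and pressure. In the adult mouse ANP is made mainly in the atria, and ventricles make more of both under load. CNP (from Nppc) acts mostly near the cells that release it, vessel lining and cartilage among them. NPR1 binds ANP and BNP, NPR2 binds CNP, and both make cyclic GMP inside the cell, while NPR3 binds all of them and mostly clears them. Corin is a protease on the surface of heart muscle cells that cuts the ANP precursor. PAM adds the amide end that many peptide hormones need and is an abundant membrane protein of atrial secretory granules.

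The 250 bases before the transcription start of Nppa, Nppb and Pam are shown because the transcription factors read below act on the first pair and because Pam was the member that changed. Sequences are those of RefSeq on GRCm38.p6, 5′ to 3′ along the gene, at chr4:148000472-148000721 (plus strand) for Nppa, chr4:147985650-147985899 (plus strand) for Nppb and chr1:98095633-98095882 (minus strand) for the more downstream of 2 listed Pam starts. Capitals mark matches, on either strand, to a GATA motif (GATAA), an Nkx2-5 element (AAGTG), a T-box motif (TCACAC), an M-CAT element (GGAATG) or a TATA box (TATAAA).
Nppa: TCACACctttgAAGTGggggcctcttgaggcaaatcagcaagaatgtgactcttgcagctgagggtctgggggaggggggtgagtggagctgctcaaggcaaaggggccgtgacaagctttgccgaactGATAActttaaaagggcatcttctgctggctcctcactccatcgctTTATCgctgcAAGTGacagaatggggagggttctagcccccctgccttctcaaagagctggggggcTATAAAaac
Nppb: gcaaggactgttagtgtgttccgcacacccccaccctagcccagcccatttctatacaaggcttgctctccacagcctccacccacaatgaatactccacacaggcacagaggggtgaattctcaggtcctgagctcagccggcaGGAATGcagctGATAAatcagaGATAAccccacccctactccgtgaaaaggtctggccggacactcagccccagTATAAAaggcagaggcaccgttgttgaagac
Pam: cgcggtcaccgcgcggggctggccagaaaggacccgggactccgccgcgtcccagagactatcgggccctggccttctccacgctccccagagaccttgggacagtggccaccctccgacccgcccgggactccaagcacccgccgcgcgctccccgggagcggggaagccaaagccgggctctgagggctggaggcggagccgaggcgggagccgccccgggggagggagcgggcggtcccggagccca
Nppa held 2 GATA matches, 121 and 75 bases before the start at their outer ends, 2 Nkx2-5 elements at 239 and 65 bases and a T-box match at 250 bases. Nppb held a pair of GATA matches at 94 and 83 bases and an M-CAT match at 105 bases. A TATA box was found in Nppa at 9 bases, in Nppb at 31 bases and in Nppc at 29 bases. All distances are from the start that RefSeq lists, and the Nppa match lay closer to its start than those of Nppb and Nppc. No matches overlapped one another, and the promoters of Pam, Npr1, Npr2, Npr3 and Corin held none of these letters. Of 32851 RefSeq promoter windows of this length, 22.6% held the GATA motif, 40.7% the Nkx2-5 element, 12.3% the T-box motif, 12.6% the M-CAT element and 12.4% the TATA box. An exact match to a CArG box (CC, a run of A or T bases, then GG), the binding motif of serum response factor, was in 1.47% of windows. None of the 8 genes held one. Near matches were not searched, so a site for serum response factor that departs from these letters would be missed. The Pam window was the richest in G and C, at 76.4%, against 54.4% for Nppa and 54.8% for Nppb.

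The comparison asked which of these genes differ between hearts deficient in HDAC3 and WT hearts. Pam was higher in KO hearts, by 1.27-fold, and was the only member to pass the test, while no peptide or receptor gene did. Thus 1 of 8 members changed at a Benjamini-Hochberg adjusted p under 0.05 in limma, where 24.6% of all 14950 genes tested did. The median difference of the 8 members was 0.08, against -0.01 over all genes tested. For Pam and Npr2 the KO and WT arrays did not overlap, 2 of 8 members, where 28.6% of all genes did not. Levels are log2 intensities, a difference is the KO mean minus the WT mean of these, and errors are SD over n = 4 arrays unless called SE.

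**Figure D1:**
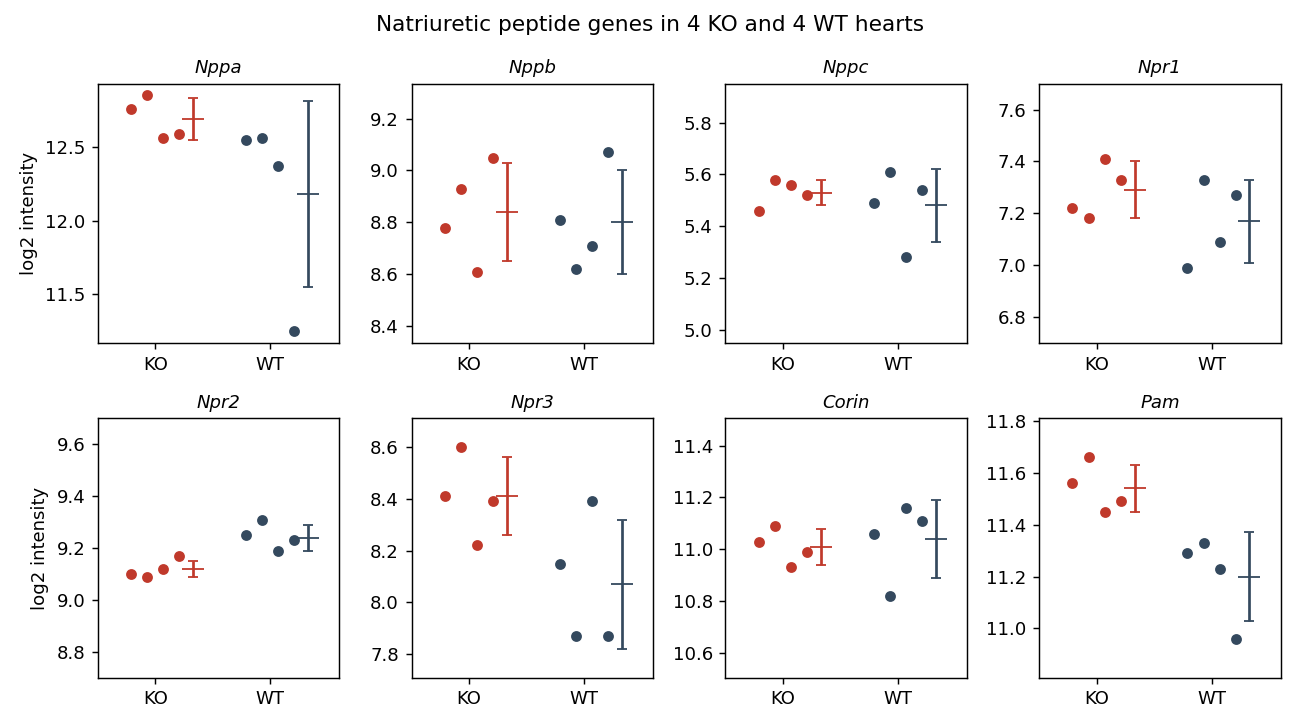
Log2 intensity of each member (y axis, scaled per gene) in every KO and WT array, with the mean ± SD of 4 arrays beside the points. KO and WT points are apart for Npr2 and Pam, and WT replicate 4 stands alone for Nppa at 11.25.

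**Figure D2:**
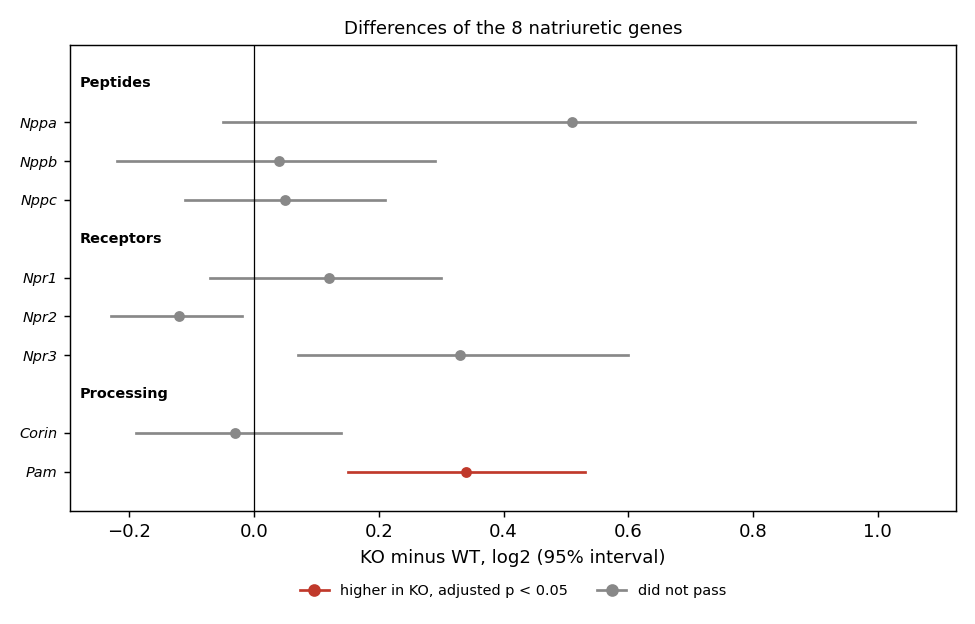
KO minus WT difference (x axis, log2) of each member with its 95% interval from limma. Pam, at 0.34, is the only member past an adjusted p of 0.05, and the interval of Nppa is the widest.

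Among the peptides, Nppa (transcript cluster 10510265) read 12.76, 12.85, 12.56 and 12.59 in KO replicates 1 to 4, against 12.55, 12.56, 12.37 and 11.25 in WT replicates 1 to 4. The KO arrays lay close together (12.69 ± 0.14), whereas WT (12.18 ± 0.63) was spread by replicate 4, which was far below the other 3. The difference of 0.51 (SE 0.25, adjusted p = 0.178) had a 95% interval of -0.05 to 1.06, which spans 0.966-fold to 2.09-fold. Without WT replicate 4 it was 0.20 (adjusted p = 0.14, with 22.3% of all genes called in that fit), so its size rested mostly on that array.

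Nppb (10510260) read 8.78, 8.93, 8.61 and 9.05 in KO hearts and 8.81, 8.62, 8.71 and 9.07 in WT hearts. These ranges nearly coincided, and the difference was 0.04 (SE 0.11, adjusted p = 0.858, 95% interval 0.861-fold to 1.22-fold). WT replicate 4, lowest for Nppa, was the highest WT array for Nppb. Nppc (10356345) read 5.46, 5.58, 5.56 and 5.52 in KO hearts, against 5.49, 5.61, 5.28 and 5.54 in WT hearts, near the dim end of the genes tested, and differed by 0.05 (adjusted p = 0.68). The sign of Nppb and of Nppc turned when some arrays were left out.

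Whether Nppa and Nppb changed unequally was tested on Nppa minus Nppb within each array, which was 3.85 ± 0.21 in KO hearts and 3.38 ± 0.81 in WT hearts. This difference of 0.47 did not pass (two-sided exact permutation test over 70 divisions, p = 0.314, and 0.343 adjusted over 2 such contrasts, with 0.0286 the smallest p possible). It was 0.07 without WT replicate 4.

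Some atrial genes followed Nppa from array to array: after subtraction of each group's mean, Pearson r with Nppa over 16 atrial markers ran from -0.53 (Hey1) to 0.99 (Myl4), with a median of 0.70, or 0.56 without WT replicate 4. Myl4, the atrial essential myosin light chain, read 12.85, 12.92, 12.64 and 12.81 in KO hearts and 12.51, 12.46, 12.27 and 11.00 in WT hearts. Myl7, the atrial regulatory light chain, read 9.87, 10.18, 9.08 and 9.93 in KO hearts and 10.69, 10.95, 10.15 and 8.72 in WT hearts. For both genes WT replicate 4 was the lowest of the 8 arrays, as it was for Nppa. Of 16 atrial markers, 8 were lowest in that array, where 9.51% of all genes tested were. Their mean level was 7.99 to 8.69 in KO hearts and 7.75 to 8.70 in WT hearts, with the lowest value again in WT replicate 4. This mean includes Bmp10, described below, which alone ran from 4.03 to 10.78 over the arrays and so moves the mean strongly. The part of the atrial markers in the Nppa difference was not tested. In bulk tissue, fewer cells of a type and less RNA per cell cannot be told apart.

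Bmp10, a growth factor gene of the right atrium, was bright in some hearts and near the floor in others. It read 10.21, 10.78, 4.85 and 9.06 in KO hearts and 9.76, 4.03, 9.78 and 4.26 in WT hearts, so 1 KO and 2 WT arrays lay below a level of 5. The arrays with low Bmp10 were thus KO replicate 3 and WT replicates 2 and 4. Without these 3 arrays Nppa differed by 0.27 (adjusted p = 0.106), Pam by 0.31 (adjusted p = 0.0329) and Npr3 by 0.20 (adjusted p = 0.243), with 15.6% of all genes called in that fit. This leaves 3 KO and 2 WT arrays, and the choice was made after seeing the data.

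Of the 16 atrial markers 1 rose, 3 fell and 12 did not pass, with a median of 0.10, a share of calls near the 24.6% of all genes. Sln, the gene of sarcolipin, which inhibits the calcium pump, rose by 0.76 (SE 0.13, adjusted p = 0.00196). Kcnj5, a subunit of the acetylcholine-gated potassium channel, fell by 0.95, Kcnk3, a background potassium channel gene, fell by 0.29 (-0.26, adjusted p = 0.0561, without the 3 arrays with low Bmp10) and Clu, the clusterin gene, fell by 0.30 (adjusted p = 0.048). Clu lost its call without KO replicate 1, 3 or 4 or WT replicate 1, 3 or 4, at an adjusted p of up to 0.123. Myl4 differed by 0.74 (adjusted p = 0.0822) and Myl7 by -0.36 (adjusted p = 0.602). Without WT replicate 4 both passed, in opposite directions, Myl4 at 0.39 (adjusted p = 0.00984) and Myl7 at -0.83 (adjusted p = 0.0451).

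**Figure D3:**
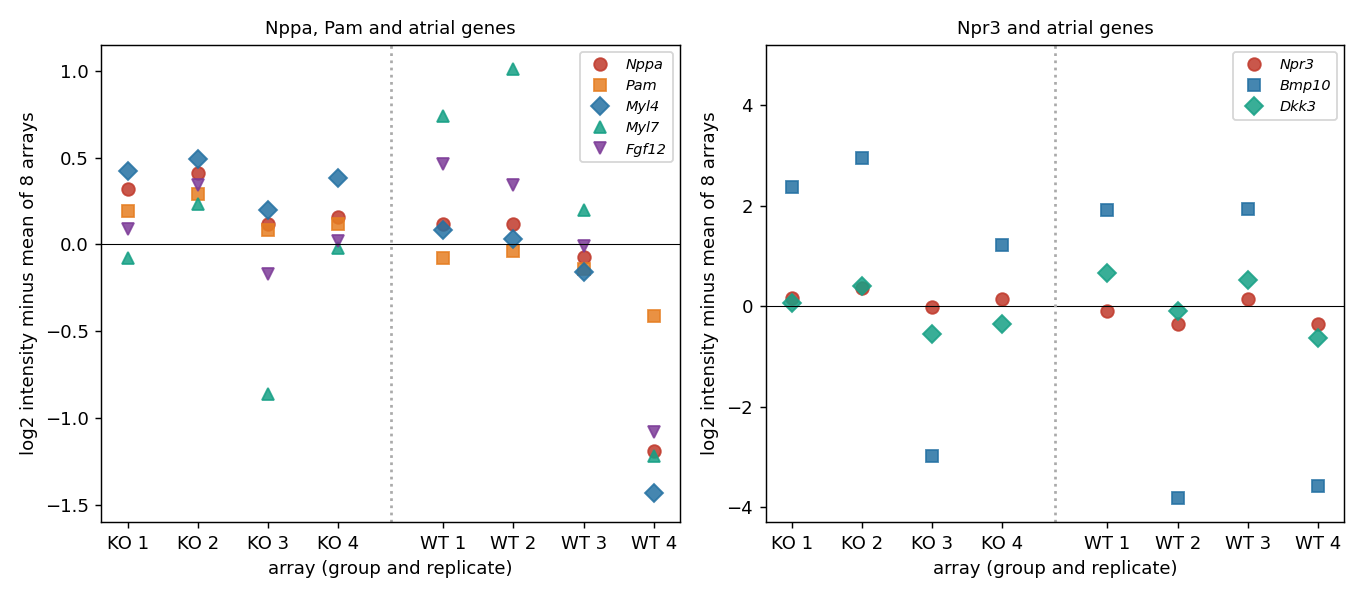
Log2 intensity of each gene minus its mean over the 8 arrays (y axis, wider range on the right) by array, for Nppa, Pam and 3 atrial markers (left) and for Npr3, Bmp10 and Dkk3 (right). Nppa, Myl4, Myl7 and Fgf12 drop together in WT replicate 4, and Bmp10 is low in KO replicate 3 and WT replicates 2 and 4.

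Turning to the receptors, Npr3 (10427796), the clearance receptor gene, read 8.41, 8.60, 8.22 and 8.39 in KO hearts, against 8.15, 7.87, 8.39 and 7.87 in WT hearts. Its 3 upper KO arrays matched or exceeded every WT array, yet WT replicate 3 lay above KO replicate 3, and so the groups overlapped. The difference of 0.33 (SE 0.12, 95% interval 0.07 to 0.60, adjusted p = 0.0678) did not pass. It passed when WT replicate 3 was left out, at 0.44 (adjusted p = 0.0124). KO replicate 3 and WT replicates 2 and 4, the lowest Npr3 arrays of their groups, were also those with low Bmp10, and the part of right atrial tissue in the Npr3 difference was not tested.

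Npr1 (10499811), the ANP and BNP receptor gene, read 7.22, 7.18, 7.41 and 7.33 in KO hearts and 6.99, 7.33, 7.09 and 7.27 in WT hearts. The groups overlapped, with a difference of 0.12 (SE 0.08, adjusted p = 0.37, 95% interval 0.952-fold to 1.24-fold). Npr3 minus Npr1 within an array was 1.12 ± 0.26 in KO hearts and 0.90 ± 0.38 in WT hearts. A difference of 0.22 between groups did not pass (two-sided exact permutation test, p = 0.343, adjusted p = 0.343), and it was -0.01 without the 3 arrays with low Bmp10. Unequal change of the clearance and the signalling receptor was therefore not detectable with these arrays.

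Npr2 (10504375), the CNP receptor gene, read 9.10, 9.09, 9.12 and 9.17 in KO hearts, against 9.25, 9.31, 9.19 and 9.23 in WT hearts. Every KO array was below every WT array, by a small margin. The difference of -0.12 (SE 0.05, 95% interval -0.23 to -0.02) did not pass at an adjusted p of 0.0871. It passed with the stricter filter on dim genes (adjusted p = 0.0484). That filter kept only genes from the 50th percentile up and called 3678 of them, against 3683 of 14950 in the main fit, so a larger share was called. Npr2 also passed with array weights (0.0464, with 30.3% of all genes called) and with robust variances that follow intensity (0.0473, with 26.6% called). Each of these settings gave -0.12.

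Of the processing genes, Pam (10356968) read 11.56, 11.66, 11.45 and 11.49 in KO hearts, against 11.29, 11.33, 11.23 and 10.96 in WT hearts. All KO arrays exceeded all WT arrays, and within the WT group replicate 4 was lowest here too. Pam rose by 0.34 (SE 0.08, 95% interval 0.15 to 0.53, adjusted p = 0.0137), to 127% of the WT level. Without WT replicate 4 it was higher by 0.26 (adjusted p = 0.0193), and it passed under each of 18 alternatives, at adjusted p-values of 0.00302 to 0.0432. After subtraction of each group's mean, the 16 atrial markers had Pearson r with Pam over the 8 arrays of -0.60 (Hey1) to 0.96 (Fgf12), with a median of 0.76, and of -0.46 to 0.87, with a median of 0.58, without WT replicate 4. These values are a description, and the part of the atrial markers in the Pam difference was not tested.

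Corin (10530441) read 11.03, 11.09, 10.93 and 10.99 in KO hearts and 11.06, 10.82, 11.16 and 11.11 in WT hearts. KO values lay wholly within the WT range. The difference was -0.03 (SE 0.08, adjusted p = 0.84), with a 95% interval of 0.874-fold to 1.10-fold.

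Within groups, after each group's mean was subtracted, Nppa and Pam had the highest Pearson r of the 28 pairs of members over the 8 arrays (0.95). Without WT replicate 4 their r was again 0.95, and that of Npr3 with Corin was 0.96, against 0.69 with it. Values of r over the pairs ran from -0.84, for Npr2 with Corin, to 0.95, with a median of -0.08. Nppa and Nppb did not share a pattern, at r = -0.59 over 8 arrays and 0.21 without WT replicate 4. These are descriptions over arrays that share tissue and hybridisation, with no test.

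By the same measure the genes most like Nppa among all tested were Myl4 (r = 0.994), Mybphl (0.989), Nebl (0.985), Fgf12 (0.982) and Tmem163 (0.972). Without WT replicate 4 they had r of 0.90, 0.89, 0.87, 0.93 and 0.93 with Nppa, values that the choice of these genes partly fixed. Myl4 and Fgf12 are on the list of atrial markers. For Pam the nearest were Samm50 (0.996), Sbk3 (0.985) and Prkdc (0.984), and Fgf12 had r = 0.96 with Pam. The nearest to Npr3 were Odf2 (0.990), Mir152 (0.978) and Pappa (0.977). Over the 16 atrial markers r with Npr3 ran from -0.52 (Kcnk3) to 0.90 (Bmp10), with a median of 0.44, and from -0.75 to 0.88, with a median of 0.38, without WT replicate 4.

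Nppb was most like Marchf5 (0.989), Fscn2 (0.988) and Amer2 (0.975), and Nppc most like Map3k15 (0.982), Rnf149 (0.979) and Slain2 (0.966). Npr1 lay nearest Zcchc4 (0.973), Cttnbp2nl (0.969) and Lama2 (0.969). Npr2 followed Mef2d (0.986), Spred2 (0.981) and Actg2 (0.979), and Corin followed Cyp1b1 (0.990), Hormad1 (0.986) and Acsm5 (0.971). With 8 arrays and 14950 genes, each member had 3 neighbours with r above 0.96.

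Transcription factors known to act on Nppa and Nppb were lower in KO hearts in many cases, and neither peptide gene passed. Of 21 tested, 10 fell, 1 rose and 10 did not pass, where 13.9% of all genes fell and 10.8% rose. The median difference of the 21 factors was -0.06, against -0.01 over all genes. Activators and repressors of the peptide genes were not separated in this list, so the counts give no direction for their joint effect. Myocd, the coactivator of serum response factor in muscle, was 8.63 ± 0.04 in KO hearts and 9.80 ± 0.11 in WT hearts and fell by 1.18 (adjusted p = 1.42e-06), to 44.3% of WT. Irx4, a ventricular homeobox factor, was 7.47 ± 0.06 in KO and 8.61 ± 0.23 in WT hearts and fell by 1.14 (adjusted p = 2.61e-05). Tbx20, a T-box factor of heart muscle, was 10.04 ± 0.07 in KO and 10.48 ± 0.08 in WT hearts and fell by 0.44 (adjusted p = 0.000366).

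Other factors, among them those of the motifs marked above, were named after their values were seen. Gata4, the main cardiac GATA factor, read 8.83 to 8.95 in KO hearts and 9.20 to 9.62 in WT hearts and fell by 0.50 (adjusted p = 0.00175). Gata6 fell by 0.23 (adjusted p = 0.0135) and Srf, the serum response factor gene, fell by 0.21 (adjusted p = 0.0141), which did not pass without the 3 arrays with low Bmp10 (-0.17, adjusted p = 0.147). Nkx2-5, the homeobox factor of heart muscle, fell by 0.23 (adjusted p = 0.029), and lost its call when any array but KO replicate 4 or WT replicate 3 was left out (adjusted p up to 0.0776) or the 3 arrays with low Bmp10 were (-0.14, adjusted p = 0.302). Tbx5, a T-box factor that activates Nppa, differed by 0.12 (adjusted p = 0.466). Mef2d, a factor of the MADS-box family, was the factor that rose (0.24, adjusted p = 0.00454). Tead1, whose protein binds the M-CAT element, differed by 0.04 (adjusted p = 0.648). The remaining factors that fell were Zfpm2 (-0.42, adjusted p = 0.00395), Hey2 (-0.37, adjusted p = 0.00477) and Rest (-0.25, adjusted p = 0.00557).

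Genes that often change along with Nppa and Nppb when the heart wall is under load were read next. The list was not sorted by the direction that each gene takes under load, so its counts and median do not measure load. Of 9 tested, 4 rose, 1 fell and 4 did not pass, with a median of -0.04, where 10.8% of all genes rose and 13.9% fell. Acta1, skeletal alpha actin, was 12.04 ± 0.07 in KO and 10.78 ± 0.26 in WT hearts and rose by 1.27 (adjusted p = 2.59e-05). Ccn2, a matricellular growth factor gene, rose by 1.19 (adjusted p = 6.18e-05) and Xirp2, a protein of the intercalated disc, rose by 0.60 (adjusted p = 5.24e-05). Ankrd1, a stretch-responsive sarcomere gene whose groups overlapped, rose by 0.21 (adjusted p = 0.0379) and did not pass under 10 of 18 alternatives, at adjusted p-values of up to 0.111. Csrp3, the muscle LIM protein gene, fell by 0.30 (adjusted p = 0.00186). Myh7, the slow heavy myosin chain, differed by -0.16 (adjusted p = 0.0948), so it stood with Nppa and Nppb among those that did not pass. Whether Nppb differed less than Acta1 was not tested. The others that did not pass were Myh6 (-0.08, adjusted p = 0.219), Atp2a2 (-0.09, adjusted p = 0.153) and Actc1 (-0.04, adjusted p = 0.561). Ankrd1, Csrp3, Myh7, Myh6, Atp2a2 and Actc1 were named after their values were seen.

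**Figure D4:**
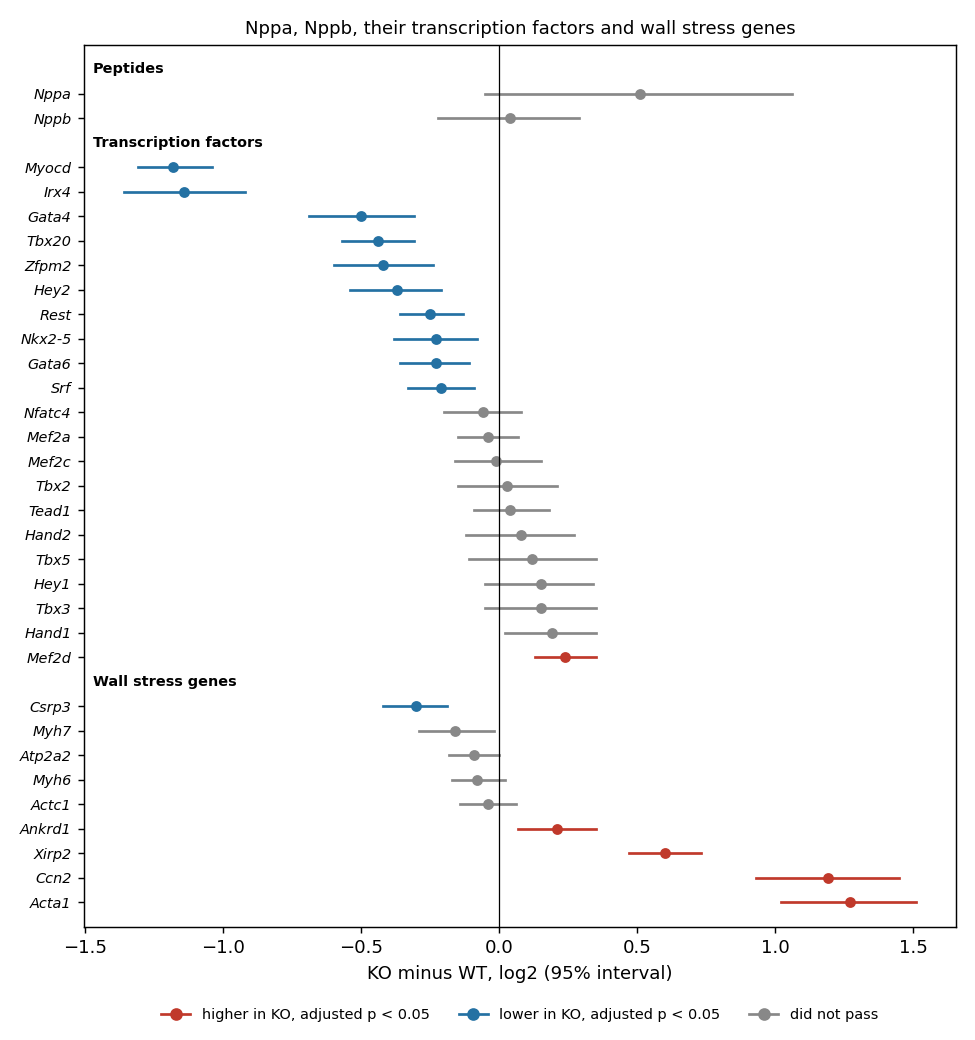
KO minus WT difference (x axis, log2) with 95% interval for Nppa, Nppb, 21 transcription factors and 9 wall stress genes, coloured by whether they passed an adjusted p of 0.05. Myocd and Irx4 lie below -1 and Acta1 and Ccn2 above 1, while both peptides include 0.

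Around the peptides, proteases and granule genes were measured in part: 6 of 11 passed the filter on dim genes, of which 2 fell, 0 rose and 4 did not pass, with a median of -0.11. Over all genes tested, 13.9% fell and 10.8% rose. Furin, a protease of the secretory pathway that cuts the BNP and CNP precursors, was 8.17 ± 0.08 in KO and 8.46 ± 0.04 in WT hearts. It fell by 0.29 (SE 0.05, adjusted p = 0.00282), but did not pass without the 3 arrays with low Bmp10 (-0.26, adjusted p = 0.0646). Cpe, a carboxypeptidase that trims peptide hormones, read 8.89 to 9.04 in KO and 9.47 to 9.53 in WT hearts and fell by 0.51 (SE 0.05, adjusted p = 6.93e-05). Pam, the next enzyme in that sequence of trimming and amidation, was thus higher in the hearts in which Cpe was lower. Whether these opposite differences are linked was not tested.

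Of 4 genes of peptide-degrading enzymes tested, 2 fell and 0 rose, with a median of -0.18, where 13.9% of all genes fell and 10.8% rose. Mme, the gene of neprilysin, the membrane protease that degrades natriuretic peptides, read 6.31 to 6.38 in KO hearts and 6.59 to 6.83 in WT hearts and fell by 0.36 (SE 0.06, adjusted p = 0.00199). Ide, the insulin-degrading enzyme gene, whose product also cleaves ANP, read 8.68 to 9.29 in KO and 9.12 to 9.60 in WT hearts and fell by 0.46 (SE 0.15, adjusted p = 0.0466). Its groups overlapped, and it did not pass without KO replicate 1, 2 or 4 or without WT replicate 3 or 4, at adjusted p-values of up to 0.119.

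In the making and breakdown of cyclic GMP, the second messenger of NPR1 and NPR2, 2 of 14 genes tested fell, 1 rose and 11 did not pass, with a median of 0.01, a share of calls near the 24.6% of all genes. Pde1c, a calcium-activated phosphodiesterase gene, read 6.71, 6.57, 6.75 and 6.48 in KO hearts and 8.02, 7.89, 8.08 and 7.85 in WT hearts. It fell by 1.34 (SE 0.08, adjusted p = 2.37e-06), to 39.6% of the WT level. Pde3a, whose enzyme breaks down cyclic AMP and is inhibited by cyclic GMP, fell by 0.42 (adjusted p = 0.000173), whereas its relative Pde3b rose by 0.67 (adjusted p = 0.000248). Prkg1, the main cyclic GMP-dependent kinase gene, differed by 0.03 (adjusted p = 0.757) and Pde5a, a cyclic GMP-specific phosphodiesterase gene, by 0.09 (adjusted p = 0.378), both named after their values were seen.

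Among amidated peptides and adrenomedullin receptor genes, whose peptides need PAM, 1 of 8 tested rose, 0 fell and 7 did not pass, with a median of 0.14. Over all genes tested, 10.8% rose and 13.9% fell. Ramp1, a receptor accessory protein gene that makes the calcitonin receptor-like receptor respond to CGRP, was 6.14 ± 0.06 in KO and 5.73 ± 0.11 in WT hearts and rose by 0.41 (SE 0.06, adjusted p = 0.00102).

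**Figure D5:**
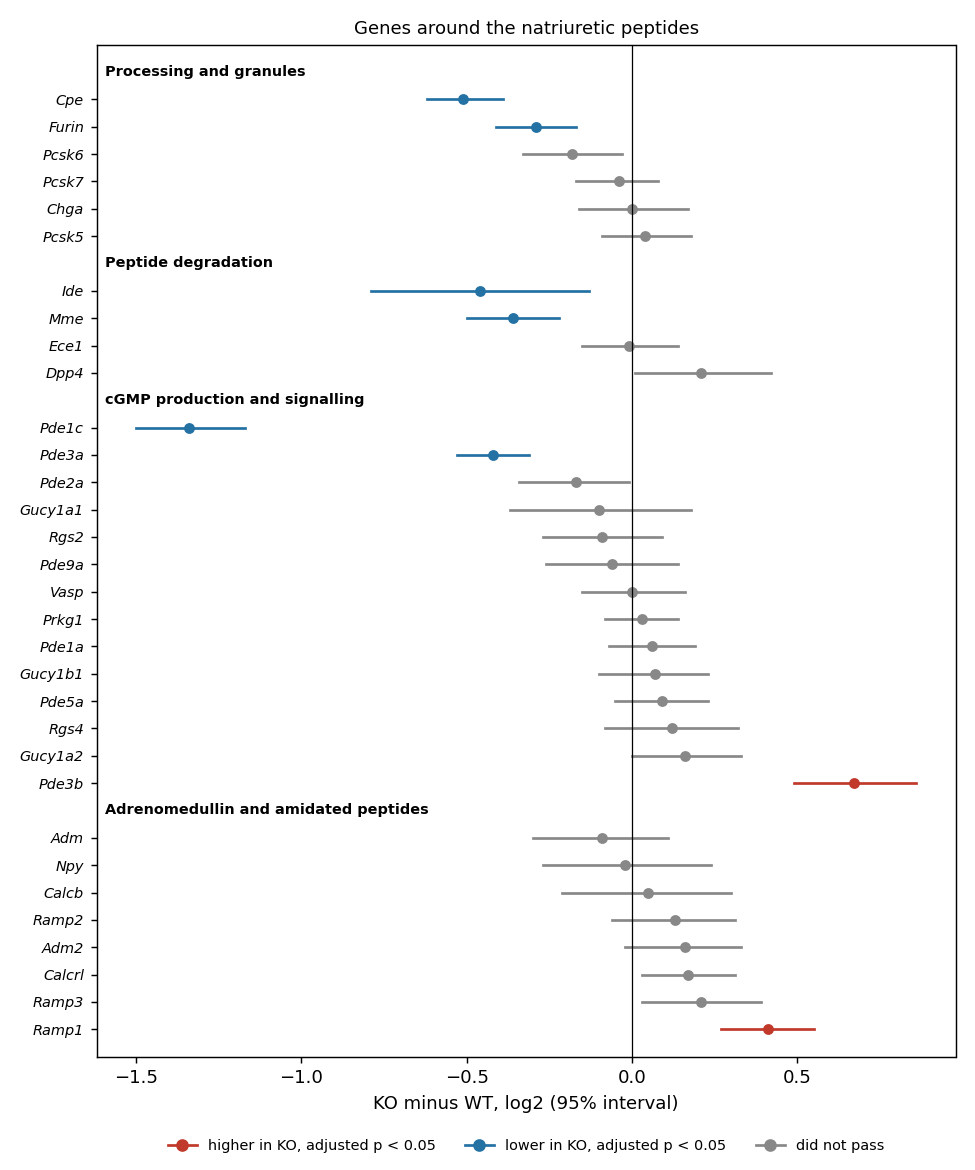
KO minus WT difference (x axis, log2) with 95% interval for tested genes of precursor processing, peptide degradation, cyclic GMP signalling and amidated peptides, coloured by whether they passed an adjusted p of 0.05. Pde1c, at -1.34, is farthest from 0, and Mme, Furin and Cpe lie on the same side.

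The labels and cell content were checked once for all genes. Hdac3 was 8.57 ± 0.05 in KO and 10.10 ± 0.08 in WT hearts and fell by 1.54 (adjusted p = 9.19e-08), to 34.4% of the WT level. Array medians ran from 54.1 to 56.5 in linear units. Heart muscle was evident from bright Myh6, Tnnt2 and Actc1, and of 10 cardiomyocyte markers 3 fell, Ryr2 by 0.53, Tnnc1 by 0.28 and Mybpc3 by 0.15, the last with a call lost without any 1 array. Of 7 ventricular markers 6 fell (median -0.37), Lbh by 0.49 and Irx5 by 0.61 besides Irx4. Over all genes tested 24.6% were called, 13.9% lower and 10.8% higher, which is the background for each count of markers given here. All 10 macrophage markers rose (median 1.36), with mean levels of 8.18 to 8.46 in KO and 6.98 to 7.20 in WT hearts, among them Lyz2 (1.41), Csf1r (1.31) and Cd68 (1.46). Of 12 endothelial and endocardial markers, cells that carry Npr1 and Npr3, 2 rose, Nfatc1 by 0.26 (0.23, adjusted p = 0.0788, without the 3 arrays with low Bmp10, which leaves 1) and Plvap by 0.30, with mean levels of 8.94 to 8.99 in KO and 8.85 to 9.08 in WT hearts. Of 9 fibroblast markers, Lum (0.38) and Col1a2 (0.23) rose and Fbln1 (-0.49) fell, and Col1a2 did not pass when KO replicate 1, 2 or 3 or WT replicate 1, 3 or 4 was left out. Of 9 smooth muscle markers Smtn fell by 0.40, of 2 red cell markers Alas2 fell by 0.33, and none of 5 epicardial markers passed (Wt1 0.08). Their part in the results on Pam, Npr2 and Npr3 was not tested.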

How the data were processed

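Total RNA from 8 mouse hearts was labelled with biotin and hybridised to Affymetrix Mouse Gene 1.0 ST arrays. The deposited table holds 1 intensity per transcript cluster and array, for 27541 clusters. Partek and RMA are named, per the submitters' processing notes, without versions or roles. No genome build is named there. The deposited intensities are on a linear scale, as their range showed, and scanner files, detection calls and scan dates were not analysed here.

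Values were taken to log2 without further normalisation. Of the clusters, 21631 have 1 symbol in the platform annotation, 1317 several and 4593 none. The brightest cluster per gene was kept, and those whose mean level fell below the 25th percentile of genes (log2 4.50) were left out. Groups were compared with limma 3.58.1 in R 4.3.3, two-sided, with Benjamini-Hochberg adjustment over 14950 genes. Tested on simulated data for KO against WT with 14950 genes, the fit recovered 85% of 1.5-fold and 99% of 2-fold changes, with 13 false calls. The simulated noise was independent between genes, and far fewer genes were changed than were called in the real data. All members differed by less than 1.5-fold, so these rates do not give the power for them. The members, gene lists and tests were chosen with earlier results of these data known. Genes named were the members, Hdac3, up to 3 changed genes of each list with the smallest p, the chamber markers and the genes most like each member, and others are said to be named after their values were seen. Some genes of the lists are not reported here. Promoters came from RefSeq (GRCm38.p6). Alternatives were scaling, filters, variance models, array weights, clusters, a pseudocount of 16, arrays left out and the replicate number as a block. The number of arrays limits the precision.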

Additional observations from a re-analysis of the deposited data

Results flagged for a closer look

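Nppa in WT replicate 4 was 11.25, far below the other 3 WT hearts (12.37 to 12.56), with a gap of 0.851 of the group's range. Myl4, the atrial myosin light chain, was set apart in the same heart, at 11.00 against 12.27 to 12.51 (gap 0.841). Hdac3 in KO replicate 4 was 8.50, below the other KO hearts, which all read 8.59 (gap 0.916), though the distance was small. A gap past Dixon's critical value for 4 arrays was looked for in 64 groups of the members, Hdac3 and the chamber markers, and 3 were found. Chance alone gives about 1 in 20, so the number found was no more than that rate gives for 64 groups. The flags for Nppa and Myl4 come from the same array and are not independent.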

How the results depend on the processing

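The call or its absence held under all alternatives run for Nppa (0.20 to 0.68), Npr1 (0.06 to 0.20), Pam (0.26 to 0.40) and Hdac3 (-1.61 to -1.50). With the sign uncertain, Nppb was -0.03 with array weights and -0.03 to 0.13 with arrays left out, Nppc -0.02 to 0.09 and Corin -0.10 to 0.01 with arrays left out. Npr2 passed at -0.12 with the 50th percentile filter, array weights or robust variances with a trend, and Npr3 was 0.27 to 0.44 with arrays left out. The number of members changed was therefore 2 under those 3 settings and 1 to 2 with arrays left out. Without the 3 arrays with low Bmp10, an alternative chosen after seeing the data, 2328 genes changed in place of 3683, Npr3 relative to Npr1 differed by -0.01, Fgf12 by -0.08 (and by -0.20 without WT replicate 4, in place of 0.14, with 0.32 without WT replicate 1) and 1 processing gene passed. Of degradation genes 1 passed with robust variances or no filter, and 1 to 2 with arrays left out. Of amidated peptide genes 0 passed with the 50th percentile filter, which left out Ramp1, 3 with array weights, 2 with robust variances, 2 with quantile normalisation and 1 to 2 with arrays left out. Other causes were not tested. Nppc was not tested under the 50th percentile filter. The filters, variance models and weights give no value for the 2 contrasts, which use no fit. KO and WT share replicate numbers. Same-numbered arrays correlated at -0.04 to 0.08 in their deviations, within the -0.23 to 0.23 of arrays with unlike numbers. Such values cannot tell whether same-numbered hearts were paired, and the labels do not say. With the replicate block Pam differed by 0.34 (adjusted p = 0.00977), Nppa by 0.51 (adjusted p = 0.0991) and 3382 genes changed, and the block changed no call among the members.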

Other observations

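Nppb and Nppa lie side by side on mouse chromosome 4 in RefSeq's gene order, and 5 genes near them were read after the members' values were known. Mfn2, a mitochondrial fusion gene, differed by -0.06 (adjusted p = 0.352), Plod1, a collagen hydroxylase gene, by 0.08 (adjusted p = 0.433) and 2510039O18Rik by -0.09 (adjusted p = 0.171) on the Nppb side. On the Nppa side, the chloride transporter gene Clcn6 differed by -0.03 (adjusted p = 0.667) and Agtrap, the gene of a protein that binds the angiotensin receptor, by -0.19 (adjusted p = 0.0849). None of these 5 genes passed in limma. In WT replicate 4, Clcn6 read 7.22, against 7.15 to 7.23 over the WT hearts, so the low Nppa value of that heart was not shared by its neighbour.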
